A study of Mus musculus with 5 samples.

Results

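Cytokine receptors of the colony-stimulating factor family and their relatives were followed in cells sorted as neutrophils from mouse blood. The 8 genes were taken by name, whatever their values: Csf3r, Csf2ra, Csf2rb, Csf2rb2, Csf1r, Il6ra, Il4ra and Il17ra. All 8 have a row among the 19127 genes of the deposited table, and all 8 were among the 14632 genes tested. Cells came from male mice of 7 to 10 weeks, kept under specific-pathogen-free conditions, at Zeitgeber time 13, and were sorted on the surface marker Ly6G after red-cell lysis. The comparison set 2 libraries labelled BMALf/f x Mrp8Cre (numbered 2 and 3) against 3 libraries labelled CXCR4f/f x Mrp8Cre (numbered 1, 2 and 3). They are called Bmal-labelled and Cxcr4-labelled here. Bmal1, gene symbol Arntl, is a transcription factor of the circadian clock, and Cxcr4 is the chemokine receptor that holds neutrophils in bone marrow. Both genotypes carry one Cre, under control of the Mrp8 promoter, whose activity covers neutrophils and some other myeloid cells. Mice without a floxed allele were not analysed here, and the effect of one genotype cannot be told apart from that of the other. Whether the libraries came from separate animals is not stated in the labels. The p-values therefore reflect only how far these samples varied, and that variation may be technical.

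Receptors of this family lie on the cell surface and have no enzyme of their own apart from CSF1R, which is a receptor tyrosine kinase. When a ligand brings receptor chains together, JAK kinases bound to the chains phosphorylate them and STAT transcription factors, while SOCS proteins and the phosphatase SHP-1 damp the signal; IL-17RA instead signals through the adaptor Act1 and TRAF6. G-CSF acting on CSF3R drives the production and release of neutrophils, GM-CSF acting on CSF2RA with the common beta chain prolongs their survival and primes them, and CSF1R is best known from monocytes and macrophages.

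The libraries differed in depth and in marker content. Recovered reads numbered 2869625 and 4058914 in the Bmal-labelled libraries and 356872, 4646391 and 9101826 in the Cxcr4-labelled libraries 1, 2 and 3. A summed set of 16 core neutrophil markers made up 0.833% and 0.612% of the deposited column in the Bmal-labelled libraries and 2.11%, 0.438% and 0.0374% in the Cxcr4-labelled libraries 1, 2 and 3. Cxcr4-labelled library 3 therefore stood apart, with the lowest neutrophil sum, and Ly6g itself, the gene of the sort marker, had 6.31 and 5.16 normalised counts against 30.1, 0 and 1.05. Endothelial markers, 17 genes, made up 0.816% and 1.84% against 1.12%, 1.43% and 2.82%, highest in that same library. In Bmal-labelled library 3 and in Cxcr4-labelled libraries 2 and 3 the endothelial sum was above the neutrophil sum, so the libraries did not hold neutrophil RNA alone. The targeted genes were a check of the labels. Cxcr4 had 398.6 and 127.8 normalised counts in Bmal-labelled libraries, against 15.1, 72.2 and 4.80 in the Cxcr4-labelled ones, lower in all 3. Cxcr2, a core neutrophil marker that was not targeted, had 1051 and 767.5 against 426.2, 349.4 and 24.1, also lower in all 3. A loss of Cxcr4 by the label and a lower neutrophil content therefore cannot be told apart here. Arntl had 4.81 and 27.6 in Bmal-labelled libraries, against 15.1, 1.90 and 1.05 in the Cxcr4-labelled ones, so its level does not separate the libraries labelled as lacking it, and each direction below is between labels. In bulk samples, fewer cells of a type and less RNA per cell cannot be told apart.

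All 8 receptor genes had a higher mean in the Bmal-labelled libraries, and none passed the threshold across all genes. The count called by limma at an adjusted p under 0.05 was 0 of 14632 genes (0%), and 612 genes had an unadjusted p under 0.05. On whole reads recovered from the table, edgeR called 0 genes, with 524 at an unadjusted p under 0.05, and the 13 that DESeq2 called among 11216 genes held no receptor gene; its unadjusted p was under 0.05 for 682. In 3 receptor genes, Csf3r, Csf2rb and Csf1r, every Bmal-labelled library lay above every Cxcr4-labelled one. Over all genes tested 13.6% were higher without overlap and 5.22% lower without overlap, and no receptor gene was lower without overlap. The same 3 genes had an unadjusted limma p under 0.05, which 3.68% of all genes tested had in the higher direction and 0.499% in the lower direction. The median difference of the 8 genes was 1.78 on the log2(normalised count + 1) scale, beside 0.11 over all genes tested, of which 55.2% had a positive difference. It was 0.88 without Cxcr4-labelled library 3, 2.50 without Cxcr4-labelled library 1 and 1.09 with DESeq2. Markers of other cell types also differed in mean, none of them past the threshold. Erythroid markers had a positive difference in 7 of 7 tested genes, with a median of 2.98, and made up 0.352% and 0.260% of the column in Bmal-labelled libraries, against 0.291%, 0.0114% and 0.0183%. Endothelial markers had a negative difference in 17 of 17, with a median of -0.49. The part of these cells in the receptor differences was not tested. The count at an unadjusted p depended on the test and on the scaling. With edgeR and with DESeq2, 0 of the 8 had an unadjusted p under 0.05. With limma it was 0 with columns scaled to one total, 0 by median ratios and 1 by TMM. Without the intensity trend of limma it was also 0. Over all genes tested, these 4 limma fits gave 622, 571, 583 and 722 genes at an unadjusted p under 0.05. With all columns scaled to one total, by median ratios or by TMM, Csf3r and Csf2rb were still without overlap and Csf1r was not, so 2 genes remained. Over all genes tested, these scalings left 13.6%, 11.6% and 12.1% higher and 5.88%, 7.54% and 6.78% lower without overlap, in that order.

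**Figure D1:**
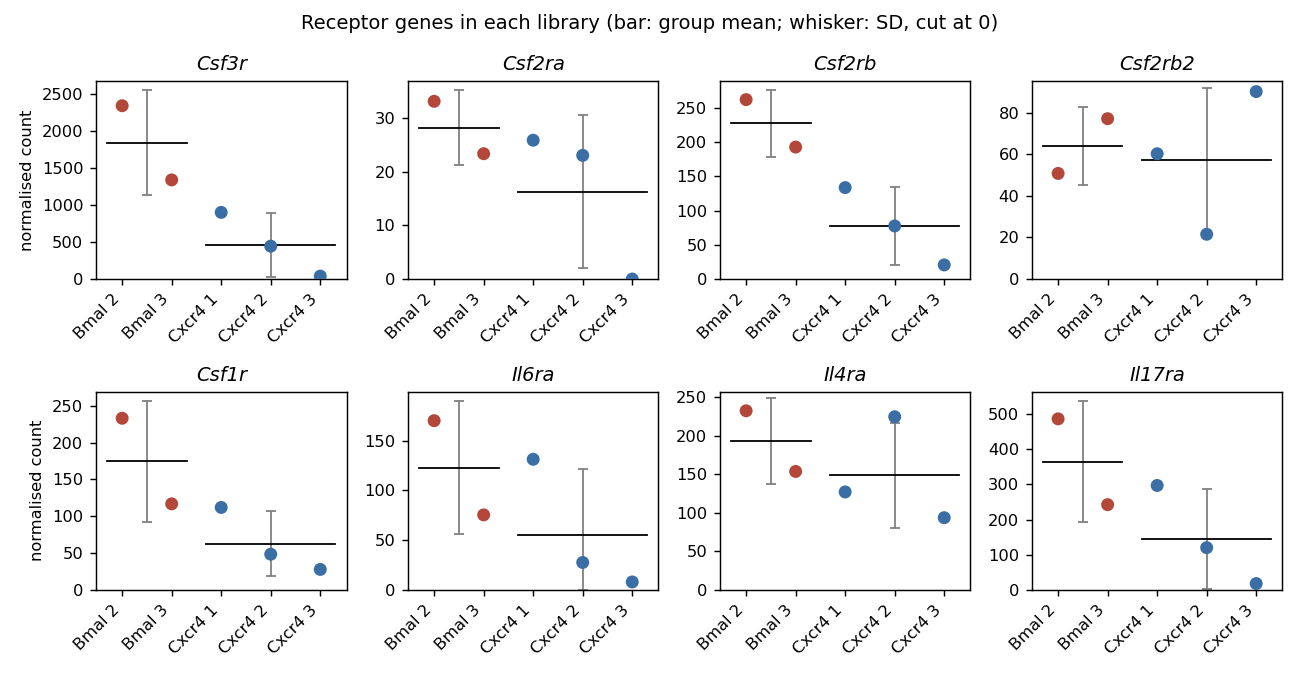
Normalised count of each receptor gene in each library, with Bmal-labelled libraries in red and Cxcr4-labelled libraries in blue; horizontal bars are group means and whiskers 1 SD, each panel with its own linear axis from 0. Csf3r, Csf2rb and Csf1r show no overlap between the groups, and Cxcr4-labelled library 3 is the lowest point in 7 panels but the highest for Csf2rb2.

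Csf3r encodes the receptor for G-CSF and lies on chromosome 4, at chr4:126024550-126044440 of GRCm38 on the plus strand. It had 2339 and 1338 normalised counts in Bmal-labelled libraries 2 and 3, against 899.7, 443.3 and 39.6 in the Cxcr4-labelled libraries 1, 2 and 3. Both Bmal-labelled libraries lay above all 3 Cxcr4-labelled ones, and Cxcr4-labelled library 3 was far below the rest. The means were 1839 ± 708 in Bmal-labelled libraries (SD, n = 2) and 460.9 ± 430.4 in Cxcr4-labelled ones (SD, n = 3). The log2 difference was 2.81 (SE 1.15, 95% interval 0.17 to 5.44, limma unadjusted p = 0.0396, adjusted p = 0.9999 over all genes tested). Without Cxcr4-labelled library 3 the difference was 1.48 and without Cxcr4-labelled library 1, the shallowest, it was 3.72. It ranked 444 of the 14632 genes by p.

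Csf2ra encodes the alpha chain that binds GM-CSF, and it had few reads. It had 33.1 and 23.3 normalised counts in Bmal-labelled libraries, against 25.8, 23.0 and 0 in the Cxcr4-labelled libraries 1, 2 and 3. The groups overlapped, and only Cxcr4-labelled library 3 stood apart, with 0 of 9101826 reads, where 3 reads would amount to 0.351 normalised counts. In Cxcr4-labelled library 1 the value rested on 12 reads, with an exact 95% Poisson interval of 13.3 to 45.1 normalised counts that covers counting error only. The log2 difference was 1.74 (95% interval -1.48 to 4.96, limma unadjusted p = 0.251), and without Cxcr4-labelled library 3 it was 0.18. Its values in the other 4 libraries ran from 23.0 to 33.1 normalised counts.

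Csf2rb and Csf2rb2 are neighbouring genes on chromosome 15, at chr15:78325752-78353847 on the plus strand and chr15:78282507-78305721 on the minus strand of GRCm38. Csf2rb encodes the common beta chain shared by the receptors for GM-CSF, IL-3 and IL-5. Csf2rb2 encodes a mouse-specific beta chain that serves the IL-3 receptor. Their coding sequences, of 2688 and 2634 bases in GENCODE M21, were identical at 2503 of 2628 aligned bases (95.24%), and the longest identical run was 242 bases. Of all 50-base windows in the transcripts, 12.3% of those from Csf2rb and 18.4% of those from Csf2rb2 occurred in the other gene, so reads from these stretches could be split between the pair and each value is uncertain to that extent. The 60-base stretch where the coding sequences are least alike, coding bases 304 to 363 of Csf2rb and 307 to 366 of Csf2rb2, is shown to let the copies be told apart, with the 13 differing bases in capitals.
Csf2rb: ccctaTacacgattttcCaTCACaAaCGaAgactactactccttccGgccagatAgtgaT
Csf2rb2: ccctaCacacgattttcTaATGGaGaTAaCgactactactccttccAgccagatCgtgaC

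The pair differed in which libraries were high. Csf2rb had 261.9 and 192.6 normalised counts in Bmal-labelled libraries, against 133.5, 77.5 and 20.6 in the Cxcr4-labelled libraries 1, 2 and 3. The groups did not overlap, and the log2 difference was 1.88 (SE 0.75, 95% interval 0.17 to 3.60, limma unadjusted p = 0.0347, adjusted p = 0.9999). Without Cxcr4-labelled library 3 it was 1.13. Csf2rb2 had 50.8 and 77.1 normalised counts in Bmal-labelled libraries, against 60.3, 21.5 and 90.2 in the Cxcr4-labelled libraries 1, 2 and 3. Here the groups overlapped fully, and the library lowest for Csf2rb was the highest for Csf2rb2. The log2 difference of Csf2rb2 was 0.34 (95% interval -1.20 to 1.89, limma unadjusted p = 0.623), and without Cxcr4-labelled library 2 it was -0.23. It was 0.048 without Bmal-labelled library 3, 0.64 without Bmal-labelled library 2 and 0.78 if Cxcr4-labelled library 3 was left out.

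The share of the pair's reads that were assigned to Csf2rb2 was computed within each library. It was 16.2% and 28.6% in Bmal-labelled libraries 2 and 3, with exact binomial 95% intervals of 14.1 to 18.6% and 26.1 to 31.2%. In Cxcr4-labelled libraries 1, 2 and 3 it was 31.1%, 21.7% and 81.4%, with intervals of 21.8 to 41.7%, 18.1 to 25.8% and 78.8 to 83.8%. In 4 libraries Csf2rb therefore supplied most of the reads and in Cxcr4-labelled library 3 Csf2rb2 did; the intervals cover counting error only. Summed over both genes, the pair had 312.7 and 269.7 normalised counts in Bmal-labelled libraries, against 193.7, 99.0 and 110.8. The sum is not touched by the split of shared reads, and its groups did not overlap. The library where Csf2rb2 led was also the one with the lowest core neutrophil sum and the highest endothelial sum; the part of either in the result was not tested.

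Csf1r encodes the receptor for CSF1 and IL-34 and is used as a marker of monocytes and macrophages. It had 233.3 and 116.8 normalised counts in Bmal-labelled libraries, against 111.9, 48.3 and 27.6 in the Cxcr4-labelled libraries 1, 2 and 3. The groups did not overlap, but the nearest pair of libraries, Bmal-labelled 3 and Cxcr4-labelled 1, was close. In Cxcr4-labelled library 1 the value rested on 52 reads, and its exact 95% Poisson interval of 83.6 to 146.8 normalised counts took in the value of Bmal-labelled library 3. The log2 difference was 1.62 (SE 0.66, 95% interval 0.098 to 3.13, limma unadjusted p = 0.0395, adjusted p = 0.9999). The span of Hmgxb3, on the opposite strand, covers 873 exon bases of Csf1r, and how many of them are exon in Hmgxb3 was not measured. The strand setting is not given in the sources used here, so any Hmgxb3 reads of that stretch cannot be told apart.

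Monocyte and macrophage markers were read beside Csf1r. The 13 listed genes made up 0.133% and 0.0631% of the column in Bmal-labelled libraries, against 0.106%, 0.278% and 0.125% in the Cxcr4-labelled libraries 1, 2 and 3, so their sum overlapped. In every library that sum rested mostly on Ace, Klf4 and Mertk. They had 411.3, 460.6 and 84.5 normalised counts in Bmal-labelled library 2, and 23.8, 135.4 and 291.0 in Bmal-labelled library 3. In Cxcr4-labelled library 1 they had 198.0, 374.5 and 150.7, and in Cxcr4-labelled library 3 they had 24.1, 502.8 and 782.5. In Cxcr4-labelled library 2 they had 1262, 1150 and 268.1, and the next listed gene there, F13a1, had 11.8. The sum therefore says little about the other listed genes in any library. Of the tested genes, 6 had a positive and 5 a negative difference, Ace, Klf4 and Mertk among the negative. Of the 11 that were tested, 4 were higher without overlap (Adgre1, Cd68, F13a1 and Ccr2) and 0 were lower, beside 13.6% and 5.22% of all genes tested. Adgre1, a macrophage marker gene, had 54.7 and 33.9 normalised counts in Bmal-labelled libraries, against 19.4, 0.633 and 2.58. The part of such cells in the Csf1r difference was not tested.

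Il6ra encodes the ligand-binding chain of the IL-6 receptor, which neutrophils also shed from their surface. It had 170.2 and 75.3 normalised counts in Bmal-labelled libraries, against 131.3, 27.4 and 7.85 in the Cxcr4-labelled libraries 1, 2 and 3. The groups overlapped, because Cxcr4-labelled library 1 lay above Bmal-labelled library 3. The log2 difference was 1.83 (95% interval -0.52 to 4.18, limma unadjusted p = 0.111). Without Cxcr4-labelled library 3 it was 0.90, and without Cxcr4-labelled library 1 it was 2.85. The span of the antisense gene Gm42809 covers 242 exon bases of Il6ra, and any Gm42809 reads there cannot be told apart from those of Il6ra.

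Il4ra encodes the chain shared by the receptors for IL-4 and IL-13. It had 232.4 and 153.6 normalised counts in Bmal-labelled libraries, against 127.0, 224.6 and 93.6 in the Cxcr4-labelled libraries 1, 2 and 3. The groups overlapped and the spread within each was large beside the gap between means, with a log2 difference of 0.44 (95% interval -0.75 to 1.64, limma unadjusted p = 0.421). It was 0.15 without Bmal-labelled library 2 and 0.16 without Cxcr4-labelled library 3, but 0.74 without Bmal-labelled library 3 and 0.79 if Cxcr4-labelled library 2 was left out. In Cxcr4-labelled library 3, where Csf3r had 338 reads, Il4ra had 799. The span of an antisense gene, Gm44876, covers 684 exon bases of Il4ra.

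Il17ra encodes the signalling chain shared by the receptors for IL-17A and IL-17F. It had 486.7 and 242.4 normalised counts in Bmal-labelled libraries, against 297.0, 119.9 and 17.6 in the Cxcr4-labelled libraries 1, 2 and 3. The order of the libraries was that of Il6ra, with Cxcr4-labelled library 1 above Bmal-labelled library 3, so the groups overlapped. The log2 difference was 1.98 (95% interval -0.37 to 4.33, limma unadjusted p = 0.0889), and without Cxcr4-labelled library 3 it was 0.86.

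**Figure D2:**
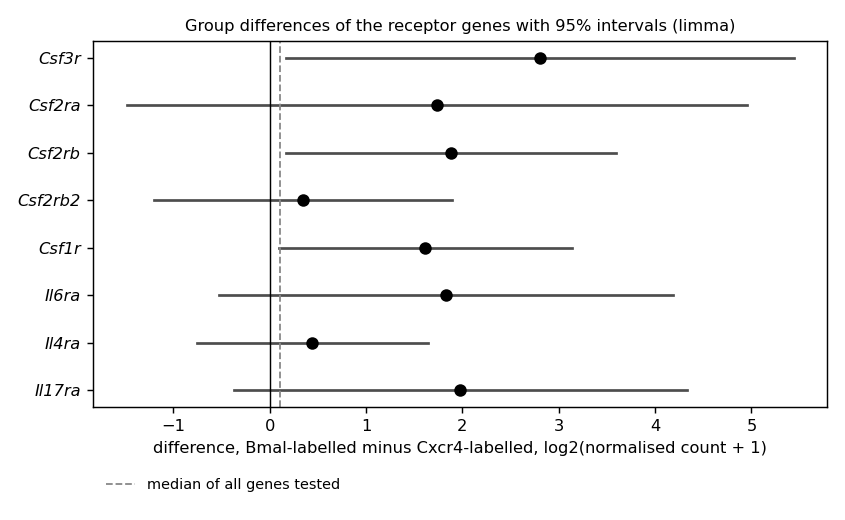
Difference between group means of log2(normalised count + 1) for each receptor gene, Bmal-labelled minus Cxcr4-labelled, with 95% intervals from limma; the dashed line is the median of all genes tested, 0.11. All 8 points lie above 0. With the values as deposited, the intervals of Csf3r, Csf2rb and Csf1r do not reach 0 before adjustment over all genes.

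Promoters of 5 of the 8 genes (Csf3r, Csf2ra, Csf2rb2, Il6ra and Il4ra) were matched in the RefSeq promoter table of build GRCm38.p6, and the 250 bases before the start were searched on both strands for 3 motifs. PU.1, a factor of myeloid cells, was given as GAGGAA, C/EBP factors, which act in granulocytes, as TTNNGNAA, and the GAS element that STAT dimers bind as TTCNNNGAA. These letters occurred in 23.3%, 36.8% and 7.02% of 32851 promoters of the same length. Csf3r had 1 PU.1 match, at 86 bases before the start, and Csf2ra had 2 PU.1 matches and 1 C/EBP match. Il4ra had no match to any of the 3, which says only that these letters are not in this window. The windows of Csf2rb2 (chr15:78305722-78305971, minus strand) and Il6ra (chr3:89913197-89913446, minus strand) are shown because Csf2rb2 had the profile least like the others and Il6ra holds matches to 2 motifs, and because neither window overlaps the gene it belongs to. The Il6ra window lies inside the antisense gene Gm42809. Capitals mark the matches.
Csf2rb2: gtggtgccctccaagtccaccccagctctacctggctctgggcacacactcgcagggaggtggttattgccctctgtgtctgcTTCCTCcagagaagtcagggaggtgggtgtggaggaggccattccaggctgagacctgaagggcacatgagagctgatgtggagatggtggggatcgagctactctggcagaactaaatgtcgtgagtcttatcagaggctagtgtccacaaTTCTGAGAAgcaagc
Il6ra: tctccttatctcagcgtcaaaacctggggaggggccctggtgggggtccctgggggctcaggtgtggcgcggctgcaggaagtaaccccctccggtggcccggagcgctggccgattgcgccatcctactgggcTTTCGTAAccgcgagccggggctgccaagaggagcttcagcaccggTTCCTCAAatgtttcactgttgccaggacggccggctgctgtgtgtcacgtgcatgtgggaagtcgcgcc

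Csf2rb2 had 1 PU.1 match, 167 bases before the start on the opposite strand, and 1 GAS match, 15 bases before the start. Il6ra had 2 C/EBP matches, at 116 and 70 bases before the start, and the match at 70 overlaps the 1 PU.1 match. A match describes letters in the window and not binding.

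Levels were compared between genes per kilobase of exon, as normalised counts divided by the union exon length. Csf3r had 648.2 and 370.7 in Bmal-labelled libraries, against 249.3, 122.8 and 11.0 in the Cxcr4-labelled libraries 1, 2 and 3. It ranked first of the 8 in 4 libraries, and its mean over the 5 libraries, 280.4, was 10.1 times that of the next gene. Il17ra followed it in both Bmal-labelled libraries, with 56.2 and 28.0, and in Cxcr4-labelled library 1, with 34.3. Il4ra took that place in Cxcr4-labelled library 2, with 37.4. In Cxcr4-labelled library 3 the order was different, with Csf2rb2 at 19.0, Il4ra at 15.6 and Csf3r at 11.0 as the leading 3. Below Csf3r, neighbours in the order of 5-library means could not be separated, since their ranges overlapped: Il4ra and Il17ra averaged 27.7 and 26.9, Csf2rb and Csf1r 18.9 and 18.6, Csf2rb2 12.7, Il6ra 9.54 and Csf2ra 7.33. Ranges over the 5 libraries did not separate Csf3r either, since its 11.0 to 648.2 took in the 15.6 to 38.7 of Il4ra.

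**Figure D3:**
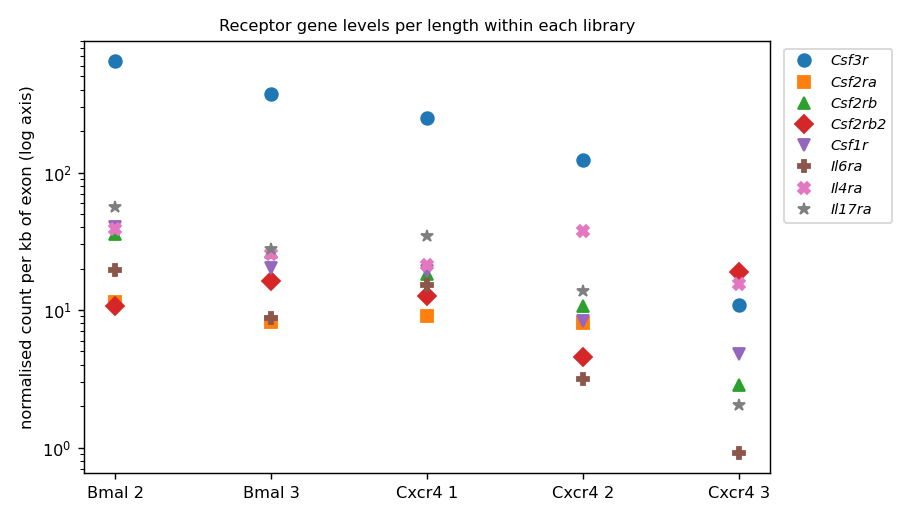
Normalised count per kilobase of exon of each receptor gene in each library, on a log axis; Csf2ra at 0 in Cxcr4-labelled library 3 cannot be drawn. Csf3r is the top point in 4 libraries, and Csf2rb2 is the top point in Cxcr4-labelled library 3.

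Since neutrophil marker content differed between libraries, each receptor gene was also expressed as a percentage of the summed 16 core neutrophil markers of its own library. Csf3r was 32.5% and 24.0% of that sum in Bmal-labelled libraries, against 5.56%, 10.3% and 9.92% in the Cxcr4-labelled libraries 1, 2 and 3. Csf3r was the 1 gene of the 8 whose groups did not overlap on this measure, and its value in Cxcr4-labelled library 3 was near that of library 2. The share of all genes without overlap was not computed on this measure, so the count of 1 has no background to be read against. Csf2rb was 3.64% and 3.46% of the sum in Bmal-labelled libraries, against 0.825%, 1.803% and 5.16%, so the library lowest for Csf2rb in normalised counts became its highest. Csf2rb2 was 0.707% and 1.39% against 0.373%, 0.501% and 22.6%, and Il4ra 3.23% and 2.76% against 0.785%, 5.23% and 23.4%. In these 2 genes the library with the fewest neutrophil markers was far above the rest. Of the 16 markers themselves, 11 had a positive and 5 a negative difference between groups, with a median of 0.79 on the log2 scale that was -0.63 with DESeq2.

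The Csf3r comparison depended on which markers stood below it. Without the abundant S100a8 and S100a9, Csf3r was 65.7% and 54.4% of the remaining sum in Bmal-labelled libraries, against 12.6%, 36.0% and 21.3%, again without overlap. On that measure Il17ra was also higher without overlap, by a narrow margin, at 13.7% and 9.85% against 4.17%, 9.72% and 9.44%. Against Cxcr2 alone, the gene of a chemokine receptor of mature neutrophils, Csf3r was 222.6% and 174.3%, against 211.1%, 126.9% and 164.1%, and the groups overlapped. Il4ra was lower without overlap against Cxcr2, at 22.1% and 20.0% against 29.8%, 64.3% and 387.9%. The Csf3r difference between groups was thus without overlap against the marker sums and with overlap against Cxcr2. For these ratios too, the share of all genes without overlap was not computed.

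**Figure D4:**
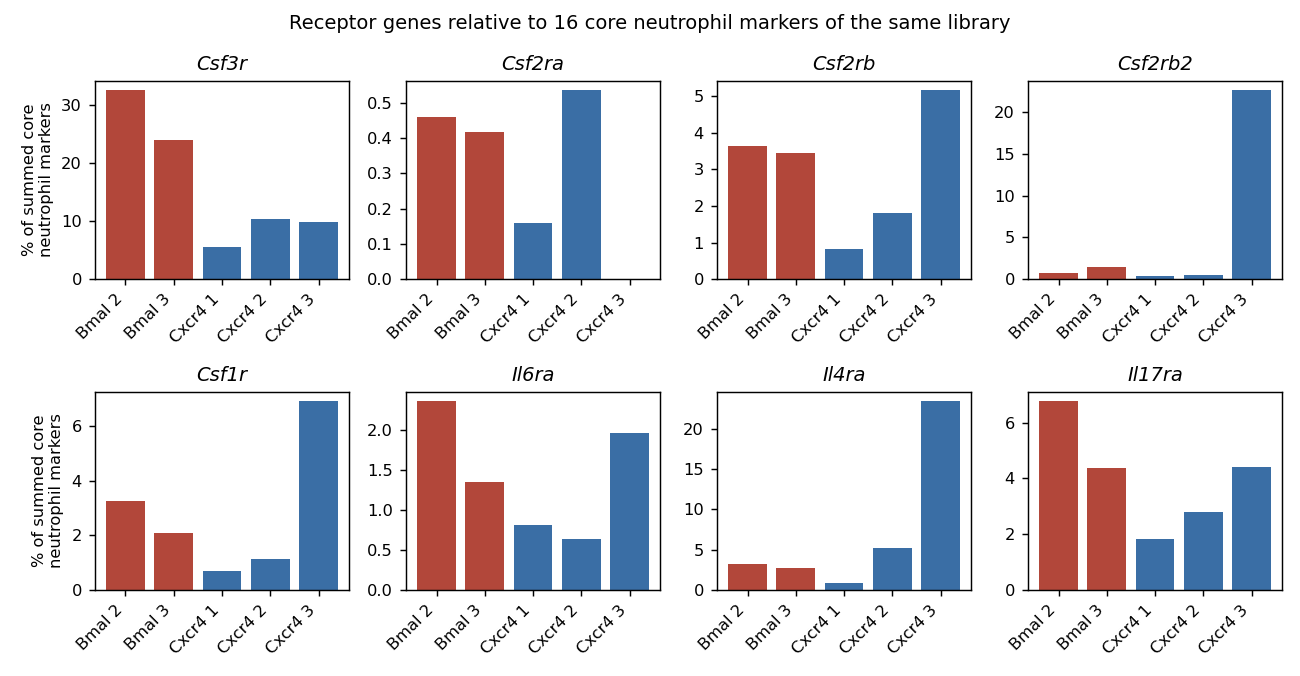
Each receptor gene as a percentage of the summed normalised counts of 16 core neutrophil markers in the same library, with Bmal-labelled libraries in red and Cxcr4-labelled libraries in blue and axes from 0. Csf3r is higher in both Bmal-labelled libraries, while Csf2rb2 and Il4ra peak in Cxcr4-labelled library 3 at 22.6% and 23.4%.

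Profiles of log2(normalised count + 1), each centred on its mean over the 5 libraries, were compared by root mean square difference, as a description. Among the receptor genes, Il6ra and Il17ra were the most alike, at 0.37, followed by Csf2rb and Csf1r at 0.41 and Csf2rb and Il17ra at 0.47. Csf2ra and Csf2rb2 were the least alike, at 2.34. Of 14631 other tested genes, Csf3r was most like Gcnt2, a glycosyltransferase gene, at 0.055, with Rnf149 and Pfkfb4 next. Gcnt2 had 731.1 and 455.0 normalised counts in Bmal-labelled libraries, against 290.6, 149.5 and 13.1. Csf2ra had Vav1, which encodes a signalling protein of blood cells, and S100a6 among its closest genes. Csf2rb was closest to H2-Q10, Rin3 and Celf2, and Csf1r to Stk40, Phpt1 and Ing4. Il6ra was closest to F630028O10Rik, Was and Akna, and Il17ra to Igsf6, Laptm5 and Dennd1c. Csf2rb2 was closest to Galc, Abcf2 and Psmc5, and Il4ra to Gpatch2l, Rab40c and Gapdh. Galc, a lysosomal galactosidase gene, had 26.2 and 45.1 normalised counts in Bmal-labelled libraries, against 30.1, 10.3 and 51.9, with its highest value in the same library as Csf2rb2.

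The ligands of these receptors were mostly not read out. Of 11 listed, 3 had a row and 1 was tested; Csf3, Csf2, Il34, Il4, Il13, Il17a, Il3 and Il5 were not analysed here. Csf1, the ligand of CSF1R, had 254.3 and 132.1 normalised counts in Bmal-labelled libraries, against 83.9, 152.2 and 144.4, with overlapping groups and a log2 difference of 0.58 (limma unadjusted p = 0.294), which was -0.22 without Bmal-labelled library 2 and 1.12 without Cxcr4-labelled library 2. Il6 reached at most 4.64 normalised counts, in Cxcr4-labelled library 2, and Il17f at most 2.69, in Bmal-labelled library 3.

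Partner receptor chains were split in direction. Of 8 listed, 6 were tested, 3 of them with a positive and 3 with a negative difference, and none passed the threshold; their median log2 difference was -0.14. That median became 0.012 with a stricter filter on low values and -0.42 with DESeq2. Il6st encodes gp130, the chain that carries the signal of the IL-6 receptor in nearly all cells. It had 410.4 and 1254 normalised counts in Bmal-labelled libraries, against 613.5, 852.7 and 2365 in the Cxcr4-labelled libraries 1, 2 and 3. It was highest in the library where Il6ra was lowest, and the order of the 5 libraries was that of the endothelial marker sum, whose part was not tested. Il13ra1, the partner of IL-4RA in the receptor that also takes IL-13, had 299.4 and 236.6 against 118.4, 133.0 and 246.7, with overlap. Il17rc, the partner of IL-17RA, had 1.804 and 4.26 against 10.8, 5.07 and 9.72, lower without overlap but with few reads (limma unadjusted p = 0.218). Il3ra, the alpha chain for IL-3, had at most 5.27 normalised counts, in Cxcr4-labelled library 3.

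JAK kinases, which sit on the receptor chains, showed little difference: of 4 tested, 3 were positive and 1 negative, with a median of 0.20 on the log2 scale, which was -0.02 with edgeR. Jak2, the kinase used by the beta common receptors, had 131.4 and 155.6 normalised counts in Bmal-labelled libraries, against 96.9, 112.3 and 173.4. Jak1 had 490.6 and 1022 against 456.3, 353.4 and 1218. Both overlapped, and both were highest in Cxcr4-labelled library 3. Jak3 had 29.8 and 59.9 against 38.7, 54.7 and 52.2, and Tyk2 had 21.9 and 15.02 against 23.7, 4.64 and 33.1, also with overlap.

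STAT factors, which carry the signal to the nucleus, had a positive difference in 5 of 5 and were higher without overlap in 2, Stat5b among them. None passed the threshold. Their median log2 difference was 0.86. Over all genes tested, 55.2% had a positive difference and 13.6% were higher without overlap. Stat5b, a STAT used by the GM-CSF and G-CSF receptors, had 194.5 and 171.5 normalised counts in Bmal-labelled libraries, against 88.3, 86.3 and 131.5 (limma unadjusted p = 0.0902). Stat3, the main STAT of G-CSF and IL-6, had 254.6 and 142.8 against 144.2, 114.8 and 73.9, and overlapped by a narrow margin. Stat6, the STAT of IL-4, had 245.3 and 233.9 against 241.1, 121.0 and 111.5, again with overlap.

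SRC-family kinases and adaptors had a positive difference in 8 of 8, beside 55.2% of all genes tested, with a median of 0.66 on the log2 scale. Of the 8, 2 were higher without overlap, Fgr and Lyn, beside 13.6% of all genes tested. None passed the threshold. Fgr, a kinase of myeloid cells, had 348.4 and 251.6 normalised counts in Bmal-labelled libraries, against 228.2, 74.9 and 6.67 (limma unadjusted p = 0.0658). Lyn, which binds the G-CSF receptor, had 296.7 and 223.3 against 200.2, 134.7 and 102.8. Grb2, an adaptor found in most cells, had 139.2 and 95.7 against 99.0, 84.0 and 30.4.

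Inhibitors of the pathway went both ways. Of 8 tested, 7 had a positive and 1 a negative difference, beside 55.2% positive over all genes tested. Of the 8, 1 was higher and 1 lower without overlap, beside 13.6% and 5.22% of all genes tested. None passed the threshold, and the median was 0.53. Cbl, a ubiquitin ligase that removes activated receptors, had 283.2 and 167.1 normalised counts in Bmal-labelled libraries, against 157.1, 71.1 and 88.4, without overlap (limma unadjusted p = 0.0634). Socs2 had 11.4 and 6.95 against 19.4, 27.9 and 27.9, the one inhibitor lower without overlap (log2 difference -1.37, limma unadjusted p = 0.0812). Socs3, which binds the G-CSF and IL-6 receptors and is induced by their signal, had 251.0 and 230.3 against 81.8, 92.5 and 314.5. Its highest value was again in Cxcr4-labelled library 3. Ptpn6, which encodes SHP-1, had 332.8 and 232.7 against 254.0, 63.1 and 12.3.

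Target genes of these receptors had a median of 1.24 on the log2 scale, with 9 of 13 tested genes positive and 4 negative. With DESeq2 that median was 0.15. Of the 13, 3 were higher and 0 lower without overlap, beside 13.6% and 5.22% of all genes tested, and none passed the threshold. Junb, an AP-1 factor induced by cytokines, had 1042 and 567.7 normalised counts in Bmal-labelled libraries, against 228.2, 316.0 and 84.1 (log2 difference 2.07, SE 0.64, limma unadjusted p = 0.0115, adjusted p = 0.9999). Bcl3, a regulator of NF-kappaB target genes, had 35.8 and 43.7 against 12.9, 9.29 and 1.29 (log2 difference 2.56, limma unadjusted p = 0.0270). Cebpd, a C/EBP factor, had 96.2 and 61.7 against 47.4, 27.0 and 14.8 (log2 difference 1.49, limma unadjusted p = 0.0449). These 3 are the ones whose groups did not overlap. Pim1, a kinase gene induced through STAT5, had 179.8 and 320.6 against 56.0, 252.3 and 40.6, and overlapped.

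Sheddases that cut receptors such as IL-6RA from the cell surface were measured through 2 genes of 5 listed. Adam10 had 167.8 and 166.8 normalised counts in Bmal-labelled libraries, against 189.4, 216.8 and 323.4, lower without overlap (log2 difference -0.50, limma unadjusted p = 0.301). Adam17, the main sheddase of IL-6RA, had 115.4 and 105.4 against 71.0, 82.1 and 123.8, and overlapped. Elane reached at most 0.224 normalised counts, and Ctsg and Prtn3 were not analysed here.

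**Figure D5:**
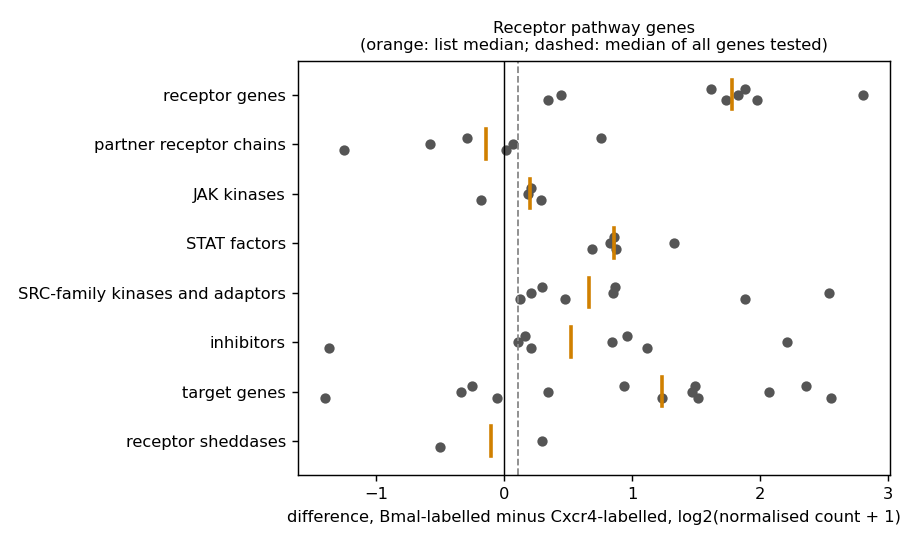
Difference between group means of log2(normalised count + 1), Bmal-labelled minus Cxcr4-labelled, for each tested gene of the receptor set and of 7 pathway lists; orange bars are list medians and the dashed line is the median of all genes tested. The receptor genes have the median farthest to the right, 1.78, and partner chains and sheddases lie around 0.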

How the data were processed

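The authors deposited 1 table of normalised counts per gene, a non-negative signal. CASAVA 1.8.2, cutadapt, RSEM 1.2.3 and build GRCm38 are named, with no role or order, per the submitters' processing notes. RNA, polyadenylated per the labels, was amplified with a single-cell kit before library preparation, which can widen the spread of low genes. For normalisation, annotation and strand setting, the method is not given in the sources used here. In every library 100% of the values divided into whole reads (tolerance 0.01 reads), which gave reads and depth.

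Values were tested as log2(value + 1) with limma 3.58.1 (R 4.3.3; intensity trend, 3 residual degrees of freedom) over genes with a mean of at least 1 CPM of recovered reads, with Benjamini-Hochberg adjustment over all 14632. This scale understates the change of low genes. edgeR 4.0.16 and DESeq2 1.42.0 were run on the recovered reads as alternatives, because the deposited values are not counts. All tests were two-sided. They were also run on simulated data whose spread was set by hand and not taken from these libraries. That run checks the code and does not show how the tests behave on these data. "Without overlap" means that every library of one group lay above every library of the other. No 2 libraries of the same group were alike within sampling noise.

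Genes named are the 8 receptors, Cxcr4 and Arntl, the 4 smallest unadjusted p-values in each pathway list, all ligands and, for each receptor, the 3 genes with the most similar profile; marker genes, Elane and genes in counts of 5 or fewer were named after their values were seen. Genes that this rule also picks but that are withheld are not reported here. The receptors and lists were chosen with earlier results of these data known. Positions, lengths and coding sequences are from GENCODE M21 on GRCm38, and coding sequences were aligned with Biopython.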

Additional observations from a re-analysis of the deposited data

How the results depend on the processing

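Over the other settings of filter, pseudocount, scaling, prior and tool, all 8 receptor genes kept a positive difference, Csf3r between 1.85 and 2.99 on the log2 scale, and none was called; the lowest adjusted p was 0.802, for Csf2rb with no filter. With DESeq2 Csf3r, Csf2ra, Il6ra and Il17ra differed by 1.85, 0.69, 1.00 and 1.19. DESeq2 called 13 genes, where limma called 0. The median of all genes tested moved from 0.11 to -0.10 with DESeq2 and -0.04 with quantile normalisation. Leaving out 1 library at a time moved Csf2rb2 between -0.23, reversed, without Cxcr4-labelled library 2 and 0.78 without Cxcr4-labelled library 3, and gave between 3 and 7 receptor genes higher without overlap, 7 without Bmal-labelled library 3 and 6 without Cxcr4-labelled library 1. Over all genes tested 21.3% to 23.9% were then higher and 9.30% to 19.2% lower without overlap. Relative to the core neutrophil markers the count of 1 receptor gene higher without overlap was 2 without S100a8 and S100a9, 0 against Cxcr2 alone and 1 to 6 with libraries left out, 6 without Cxcr4-labelled library 3, 3 without Bmal-labelled library 3 and 2 if Cxcr4-labelled library 2 was left out. The leave-outs of both overlap counts, the rescaled overlaps and Cxcr2 alone were added after seeing the data, and the cause was not tested. No share over all genes was computed for the ratios to neutrophil markers. With the replicate block 0 genes were called, Csf3r differed by 3.72, and the lowest adjusted p of a receptor gene was 0.185, for Il6ra. With the block 2183 genes, against 612, had an unadjusted limma p under 0.05, and 5 receptor genes against 3. Cxcr4-labelled library 1 has no same-numbered partner, and the Csf3r difference was the same as without that library. Same-numbered libraries deviated together (r across genes 0.28 and 0.39), and these r values are not independent, since libraries were centred on their group means. They rest on 2 pairs with no label tying them, so the numbers were not taken as pairs. Library 1 of the Cxcr4-labelled group, with 356872 reads, limits the low genes: 3 reads amount to 6.46 normalised counts there.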
